A study of Arabidopsis thaliana with 58 samples.

Results

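The long H3K9me2 islands described here are peaks of at least 1000 bp whose summit lay on the arms of chromosomes 1, 3 and 5 of Arabidopsis thaliana, outside the gene-poor pericentromeres. Of the 4144 H3K9me2 peaks deposited for the series, 345 met this rule. Members were chosen by the width and the summit position of each peak, so both are descriptions here. The series of 58 samples was made mainly to compare 2 ways of reading DNA methylation, enzymatic methyl sequencing (EM-seq) and whole-genome bisulfite sequencing (WGBS), and to compare flowers with leaves. For the histone mark, flower buds that had not yet opened were taken from wild-type Columbia-0 (Col-0) plants of 4 weeks, and their chromatin was immunoprecipitated with the H3K9me2 antibody ab1220. There was 1 such library and it has no replicate, so the values describe that library, and no test between groups was possible. The H3 library of the same chromatin was not analysed here. The peak list holds no read counts, so the depth is unknown, and it cannot be checked against expression markers of flowers.

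H3K9me2 is dimethylation of lysine 9 of histone H3. In plants it is written by the SUVH4 (KYP), SUVH5 and SUVH6 methyltransferases, which bind methylated DNA, while the CHROMOMETHYLASES CMT3 and CMT2 bind the histone mark and methylate nearby cytosines in CHG and CHH contexts, so that each mark helps to keep the other. Most of this chromatin sits around the centromeres, where transposons have piled up. On the arms, it occurs as islands over single transposons or other repeats between active genes. Many arm elements are LTR retrotransposons, which carry a long terminal repeat (LTR) at each end and, just inside the upstream LTR, a primer binding site that pairs with the end of a tRNA.

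The sequences printed here show what lay under the islands that the results turn on. All are from the RefSeq sequence of TAIR10.1 and are read 5′ to 3′ on the strand given. The windows of the ONSEN copies, a heat-activated copia retrotransposon, are given because they show the mark over near-identical elements. Each has 48 bases, and the capitals mark the 12 bases at the place of the primer binding site. The window of AT1G11265 was found base for base in 6 of the 7 copies, and AT1G21945 differed from the site at 2 bases.
AT1G11265, chr1:3781190-3781237, plus strand: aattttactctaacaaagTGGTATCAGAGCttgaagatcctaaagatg
AT1G21945, chr1:7717781-7717828, plus strand: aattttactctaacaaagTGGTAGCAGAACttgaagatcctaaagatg
Another set is from the 5 islands with near-full copies of each other that included the 4 highest folds of all islands. It starts with 60 bases around the summit of the island of the highest fold, followed by the best ungapped match in each of the others. Capitals mark bases that differ from the first line.
AT5G38705, chr5:15496209-15496268, plus strand: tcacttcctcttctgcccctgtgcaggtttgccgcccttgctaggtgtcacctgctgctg
AT5G26236, chr5:9184022-9184081, minus strand: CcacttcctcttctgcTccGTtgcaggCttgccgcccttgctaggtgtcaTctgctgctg
AT3G29076, chr3:11060499-11060558, plus strand: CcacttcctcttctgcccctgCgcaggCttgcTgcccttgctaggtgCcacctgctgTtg
AT3G44796, chr3:16336149-16336208, minus strand: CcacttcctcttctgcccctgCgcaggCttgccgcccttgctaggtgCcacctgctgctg
AT5G27885, chr5:9895883-9895942, plus strand: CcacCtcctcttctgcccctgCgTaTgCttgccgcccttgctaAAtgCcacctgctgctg
The next set comes from 7 islands that share a sequence with no pseudogene locus over it. In the other 6 members, the 60 bases around the summit of the highest one were matched with 0 or 1 difference.
Highest member, chr5:17086009-17086068, plus strand: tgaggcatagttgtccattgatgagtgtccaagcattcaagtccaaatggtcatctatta
Member over AT1G56100, chr1:20980319-20980378, minus strand: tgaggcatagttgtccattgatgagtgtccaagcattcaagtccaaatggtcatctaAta
The last sequence shows 2 consecutive repeat units of HRGP1, a cell wall glycoprotein gene, with the second unit in capitals. The units have 75 bases each and matched at all 75.
HRGP1, chr3:20207069-20207218, plus strand: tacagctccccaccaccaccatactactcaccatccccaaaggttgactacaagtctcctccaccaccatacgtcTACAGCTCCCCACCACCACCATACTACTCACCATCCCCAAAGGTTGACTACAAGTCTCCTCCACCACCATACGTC

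The 345 islands held 52.0% of the 664 arm peaks of the 3 chromosomes and 89.6% of the bases in those peaks. They covered 1371228 bp, or 2.02% of the arms. Chromosome 1 had 136 islands, chromosome 3 had 97 and chromosome 5 had 112, and they covered 2.09%, 1.98% and 1.99% of the arms of these chromosomes. As a check of the mark, 82.4% of the bases in the 2549 peaks of these chromosomes were in peaks of the pericentromeres. These were chr1:12800001-16800000, chr3:11100001-15900000 and chr5:10000001-14300000, while the arms had 67763003 bp. Median width was 3470 bp (quartiles 1831 and 5295), and 13 islands had at least 10 kb. At the threshold, the narrowest members had 1005, 1006, 1008 and 1016 bp with folds of 2.38, 2.81, 2.55 and 2.16. The widest peaks left out had 996, 993, 993 and 988 bp with folds of 2.02, 2.49, 3.06 and 2.69. The fold values on either side of the threshold thus overlapped.

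Fold enrichment here is the ratio over background that the peak caller of the authors, MACS2, reports at the summit of a peak. It is not a mean over the bases of the peak. Its median was 4.28 in the islands (quartiles 3.32 and 5.47, range 1.73 to 10.96), 2.19 in the 319 short arm peaks (quartiles 1.93 and 2.50) and 3.61 in the 957 long peaks of the pericentromeres (quartiles 2.79 and 5.17). Fold and width came from the same peak call, and wider islands had higher folds, with Spearman's rho of 0.76 and Pearson's r of 0.65 across the 345 islands of this library. The 96 islands under 2 kb had a median fold of 2.94, and the 13 of at least 10 kb had 6.26. The medians by chromosome were 4.20, 4.09 and 4.41 on chromosomes 1, 3 and 5.

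**Figure D1:**
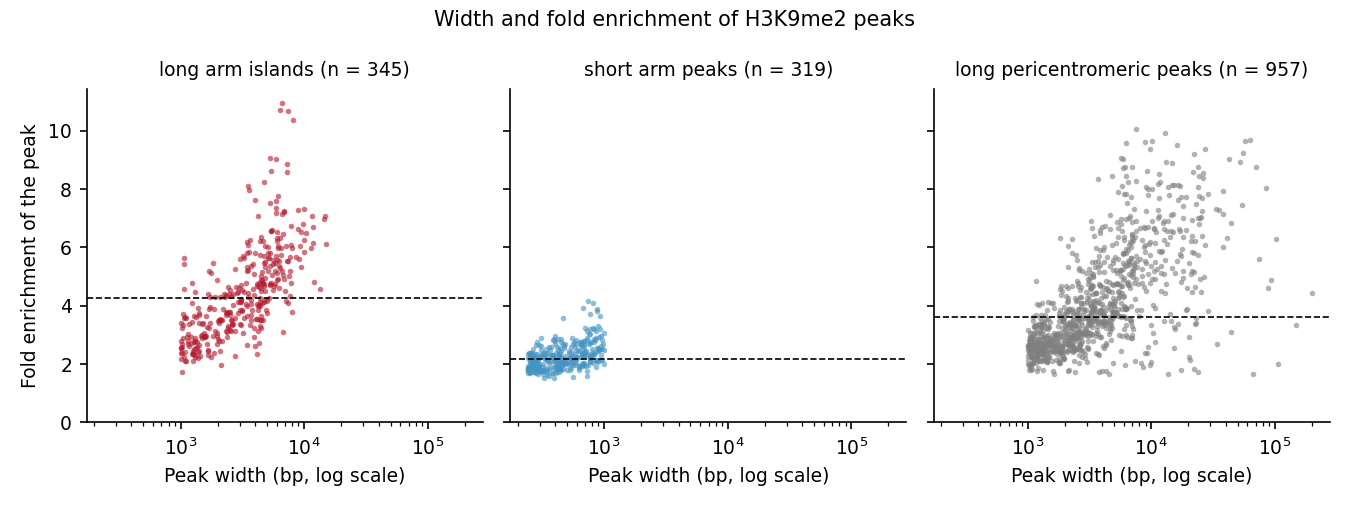
Fold enrichment of each peak (vertical axis) against its width in bp on a log scale (horizontal axis), for islands, short arm peaks and long pericentromeric peaks, with the median fold of each class as a dashed line. Folds of islands climb with width and reach 10.96, and the medians are 4.28, 2.19 and 3.61.

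Islands lay closer together near the pericentromeres. In the first 1 Mb of the 6 arms next to the border, there were 102 islands, or 17.0 per Mb, and they covered 7.22% of the bases. From 1 to 2 Mb there were 8.67 per Mb, and from 2 to 4 Mb 5.08. Beyond 8 Mb, there were 30 islands, or 1.48 per Mb, covering 0.497% of the bases. These zones depend on where the border was set. With wider pericentromeres 270 islands were left, and the zones were not counted again for them. By arm, density ranged from 4.23 per Mb on the upper arm of chromosome 3 to 6.61 per Mb on its lower arm, which is also the shortest arm. The fold did not follow this order, since its median was 4.11 within 1 Mb, 5.19 from 2 to 4 Mb and 4.16 beyond 8 Mb. Spearman's rho of fold with distance was -0.05 and Pearson's r was -0.08 over the 345 islands. The median gap from an island to its nearest neighbour was 29305 bp, and 54 islands had another within 1 kb.

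**Figure D2:**
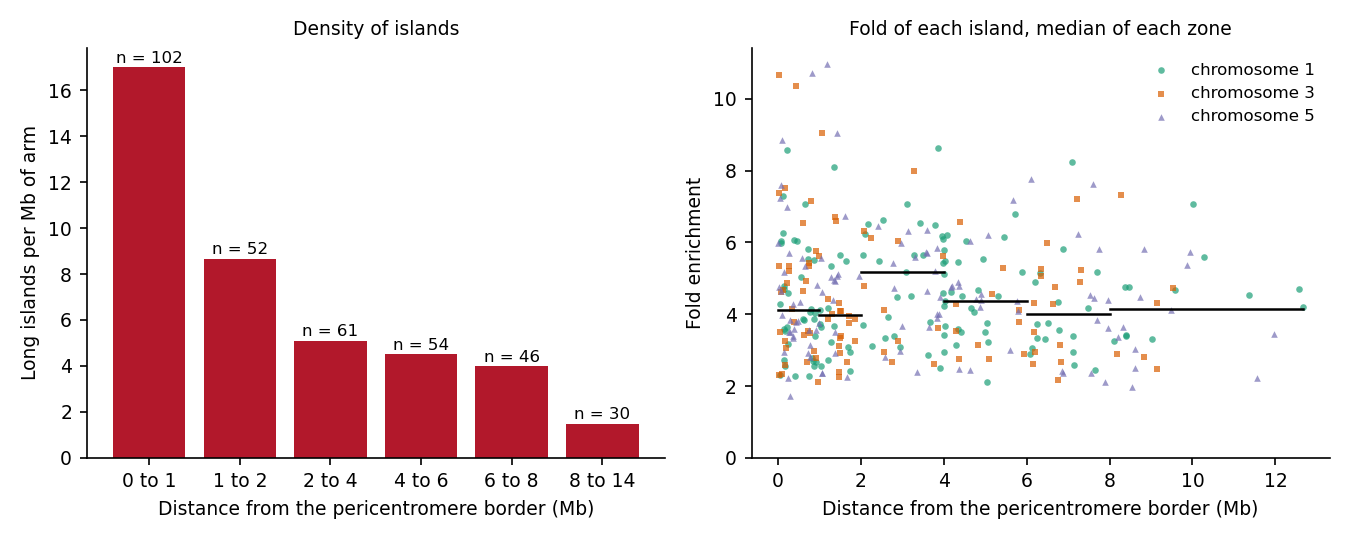
Left, long islands per Mb of arm in 6 zones of distance from the pericentromere border in Mb, with the number of islands above each bar. Right, fold enrichment of each island against the same distance, with a symbol per chromosome and the median of each zone as a black line. Density is 17.0 per Mb next to the border and 1.48 per Mb beyond 8 Mb, while zone medians of the fold stay between 3.98 and 5.19.

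The islands farthest from the pericentromeres are given arm by arm. On chromosome 1, the island at chr1:29474717-29478450 over the pseudogene locus AT1G78350 lay 12.7 Mb from the border and had a fold of 4.20. Its counterpart on the upper arm, chr1:1441740-1444246, lay 11.4 Mb out, touched the protein-coding gene AT1G05030 and had a fold of 4.53. On chromosome 5, chr5:26258647-26259872 over AT5G65676 was 12.0 Mb out with a fold of 3.44, and chr5:64700-71245 over AT5G01185 was 9.93 Mb out with a fold of 5.73. On chromosome 3, chr3:1555713-1560470 inside AT3G05410 was 9.54 Mb out with a fold of 4.74, and chr3:23203759-23207244 over AT3G62725 was 7.31 Mb out with a fold of 5.24. The 6 folds lay on both sides of the median of all islands.

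The annotation used here has no separate entries for transposons, so overlap with pseudogene loci was counted. A pseudogene locus need not be a transposon, and an island without one can still hold a repeat. At least 1 bp of a pseudogene locus was inside 267 islands, or 77.4% (95% Wilson interval 72.7 to 81.5, counting error only), compared with 63.1% of all 2549 peaks of the 3 chromosomes. The shares were 38.9% in short arm peaks (33.7 to 44.3), which are also narrower, with a median width of 437 bp, and 81.1% in long pericentromeric peaks (78.5 to 83.4). The share differed by width among the islands themselves, with 53.1% under 2 kb and 95.2% from 4 to 6 kb. Pseudogene loci covered a median of 79.5% of an island (quartiles 42.2 and 95.2), and the summit base was inside such a locus in 71.9% of islands. Seen from the annotation, 324 of the 1051 pseudogene loci of these arms were touched, which is 30.8%, and 309 had at least 50% of their length inside. The touched loci were longer, with a median of 3358 bp, against 827 bp in the other loci.

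Words for transposon classes were rare in the annotation. The ONSEN copies, which are copia elements and lay under islands, carried none of them, so the counts by word miss elements. Of the 26 arm loci described as LINE or non-LTR, 3 were touched by an island, all named as Ta11-like non-LTR retrotransposon: AT3G57587 with a fold of 5.29, AT5G18636 with 5.20 and AT5G25200 with 5.03. These elements copy themselves through RNA without LTRs. Of 5 loci with the word copia, only AT1G34070 was touched (fold 6.07). Of 9 loci named for Mutator or MuDR, AT5G15685 (4.20) and AT5G43015 (2.97) were touched, and of 10 named for hAT or Ac, AT1G19260 was touched (3.06). Of these 7 touched loci, AT5G43015 is annotated as a pseudogene and the others as protein-coding, and over all protein-coding genes of the arms 0.589% were touched. Neither the 8 Sadhu loci nor the 1 CACTA locus lay under an island. No arm locus had the words gypsy or helitron. A further 38 arm loci had only a general transposon word, and 3 of them were touched.

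The 345 islands had a median GC content of 40.6% (quartiles 38.4 and 43.0), compared with 39.4% in short arm peaks, 39.8% in long pericentromeric peaks and 35.8% over all arm bases outside peaks. CHG sites, the context that CMT3 methylates, numbered a median of 31.8 per kb in islands, 27.5 in short arm peaks, 28.4 in long pericentromeric peaks and 25.8 over the arms outside peaks. CG sites were closer, with 25.5, 25.3, 24.4 and 23.2 per kb. Among islands, fold went with CHG density (Spearman's rho of 0.53, Pearson's r of 0.51, n = 345). Width went with CHG density too, with a rho of 0.50, and fold and width share the peak call.

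Reads of 50 bp cannot be placed between identical copies, so the share of 50-base windows that occur once in the nuclear and organelle genomes was counted for each island. Its median was 69.0% in islands (quartiles 31.0 and 97.2), 73.2% in short arm peaks and 88.0% in long pericentromeric peaks. With windows of 100 bases, the medians were 89.1%, 97.1% and 98.9%. Over the arms outside peaks, 97.6% of 50-base windows were unique. Islands spread over the whole range, since 39 had under 10% unique windows and 76 had 99% or more. The median fold was 4.38 in the 39 and 4.31 in the 76, and over all islands fold and uniqueness were nearly unrelated (Spearman's rho of 0.02, Pearson's r of 0.06). In the 76 nearly unique islands, where reads can be placed, 80.3% lay over a pseudogene locus and median width was 3946.5 bp. In 11 islands, no window was unique, so their folds of 2.38 to 6.72 belong to a sequence and not to a place. How the authors treated reads with several matches is not given in the sources used here.

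**Figure D3:**
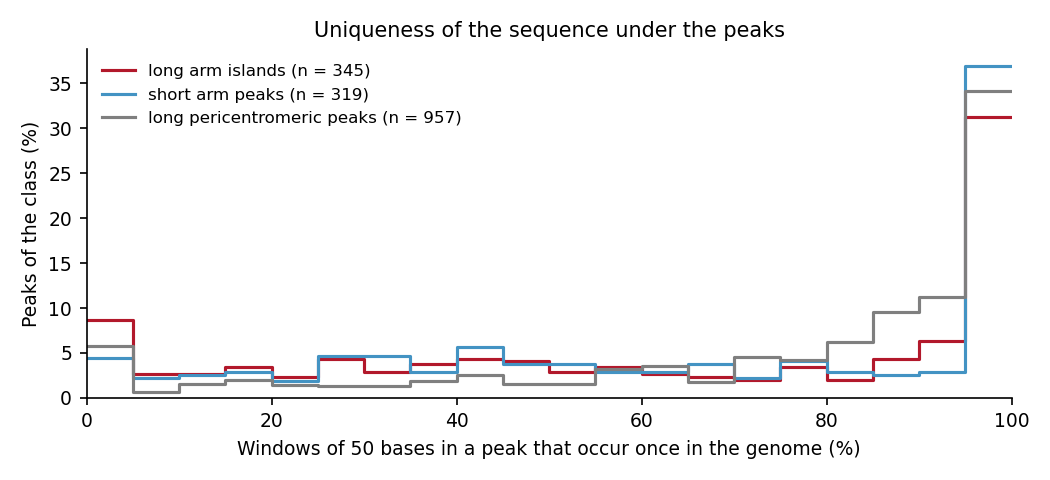
Share of the peaks of each class (vertical axis, %) by the share of their 50-base windows that occur once in the genome (horizontal axis, %, bins of 5). Islands have peaks at both ends of the axis, and the medians are 69.0% in islands, 73.2% in short arm peaks and 88.0% in long pericentromeric peaks.

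Near-full copies were found for most islands, a count that was not made for the other peak classes. For 208 islands, or 60.3%, at least 1 further place in the nuclear genome aligned over 80% of the island or more at 80% identity or more, and for 115 of them such a place lay in the pericentromeres of chromosomes 1, 3 or 5. For 57 islands, no further place aligned over 10% of their length. Islands with a further copy had a median fold of 3.96 and a median width of 3060 bp, against 4.75 and 4218 bp in islands without. The copies that were not islands themselves came to 466 places. Of 196 in the pericentromeres, 93.4% had at least 50% of their bases in a deposited peak, as did 92.5% of the 241 on chromosomes 2 and 4. On the arms, 29 further places were left, of which 14 had 50% or more in a peak, and these 29 were short, with a median length of 1164 bp. Arm copies that were islands had been taken out, so the arm count cannot be compared with the other shares. How much of each region as a whole lay in peaks was not counted, so whether these shares are high for their region cannot be told.

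By shared sequence over at least 50% of the shorter island, 158 islands fell into 48 families, of which 10 had 5 members or more. These families were formed after the peaks were seen. The family printed above with its summit sequence held the 4 highest folds of all islands and a lower one, 10.96 over AT5G38705, 10.7 over AT5G26236, 10.7 over AT3G29076, 10.4 over AT3G44796 and 8.87 over AT5G27885. Their widths ran from 6408 to 8139 bp and their GC content from 45.9% to 47.9%, above the median island. Across the nuclear genome this sequence had 33 places, counting the 5 islands themselves, which are peaks by definition. Of the 33, 15 were in the pericentromeres of chromosomes 1, 3 and 5, and all 33 had at least 50% of their bases in a peak. Between 40.5% and 84.1% of the 50-base windows of these islands were unique, and the member with the highest share had the lowest fold.

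Of the 9 named widest islands, 5 belonged to 2 families. One family had 11 members, among them the widest island of each of the 3 chromosomes: chr3:8843058-8858048 with 14991 bp (fold 6.13), chr1:9676567-9691188 with 14622 bp (7.07) and chr5:14502985-14517409 with 14425 bp (6.99). Each ran over 5 pseudogene loci in a row, from AT3G24365 to AT3G24390, from AT1G27780 to AT1G27815 and from AT5G36825 to AT5G36860. Its 3 members under 2 kb had folds of 2.41, 2.55 and 2.94, and the other 8 lay between 5.18 and 7.07. The other family had 5 members, including chr1:7353017-7364803 with 11787 bp (6.14) and chr3:9724223-9736106 with 11884 bp (6.72). Copies in it were 99.5% identical at the median and 0 to 1.29% of their windows were unique. The remaining named wide islands were chr1:17035829-17049275 over AT1G45070, AT1G45080 and AT1G45090 with 13447 bp (4.59), chr3:2808722-2818762 over AT3G09165 and AT3G09170 with 10041 bp (7.33), chr5:15233109-15245035 over AT5G38192 with 11927 bp (4.81) and chr5:7027828-7039182 over AT5G20750 to AT5G20780 with 11355 bp (6.00). The last of these had no aligned copy, and 99.4% of its windows were unique.

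**Figure D4:**
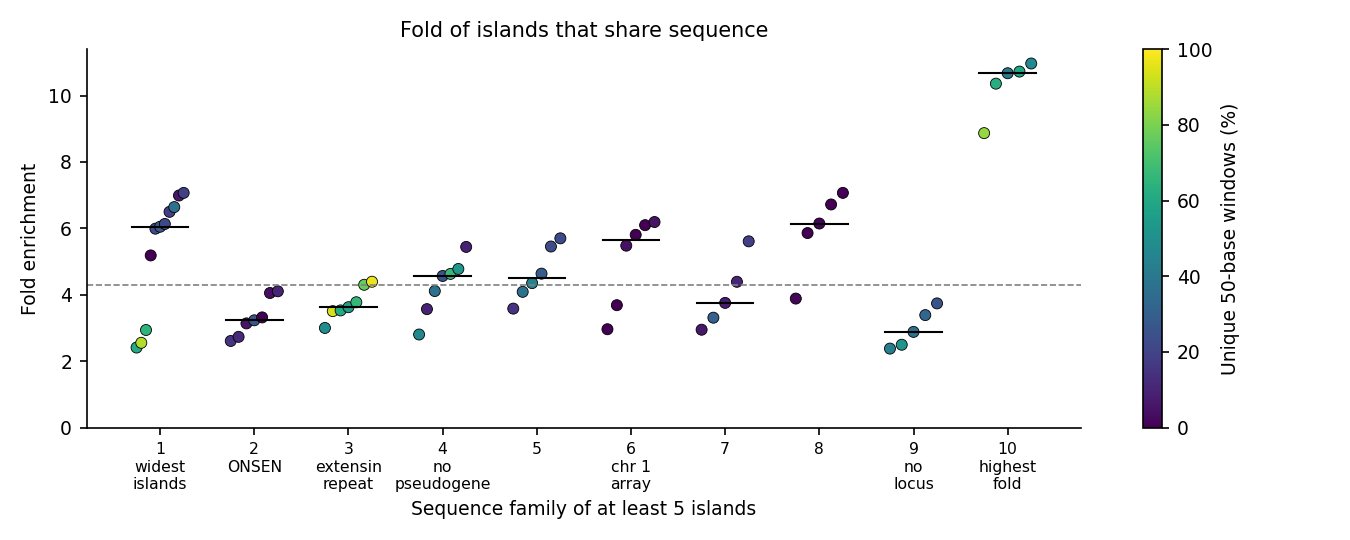
Fold enrichment (vertical axis) of each island in the 10 sequence families with at least 5 islands (horizontal axis), coloured by the share of unique 50-base windows, with a black line at each family median and a dashed line at the median of all islands, 4.28. Members of the family that holds the 4 highest folds lie between 8.87 and 10.96, the ONSEN copies between 2.61 and 4.10.

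High folds also occurred where nearly all windows were unique. On chromosome 1, the 3 highest folds were 8.63 at chr1:8927697-8933100 over AT1G25430, 8.58 at chr1:17023381-17030706 over AT1G45020 and 3 further loci, and 8.23 at chr1:5691814-5696563 over AT1G16660. Unique windows made up 99.4%, 94.6% and 99.6% of these. The next on chromosome 3, 9.06 at chr3:16957501-16962809 over AT3G46183, was a relative of the island at AT1G45020 with 85.3% identity. The next on chromosome 5, 9.04 at chr5:8571803-8577734 over AT5G24915, consisted entirely of unique windows.

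All 7 ONSEN copies of the list used here lay under an island. AT5G13205 had a fold of 4.10, AT1G58140 4.05, AT1G11265 3.32, AT1G21945 3.23, AT3G61330 3.14, AT1G48710 2.73 and AT3G59720 2.61. All 7 were below the median island, 4.28, and AT1G48710 and AT3G59720 were lowest. Only 0 to 26.5% of their 50-base windows were unique, so these values cannot be fully assigned to single copies. Islands had 4039 to 4600 bp and held 99.4% to 100% of the annotated locus. The longest direct repeat pair around each island had 440 to 463 bp in 6 copies and 748 bp in AT1G48710, with identities of 97.1% to 100%. These pairs lay where LTRs do, at the ends of the locus. In AT1G48710 the left repeat also held the primer binding site and the start of the locus, so this pair ran past the LTR. The left repeat on the chromosome lay inside the island by 12.9% to 69.0% of its length and the right one by 0% to 81.6%. Between the outer ends of the repeats, 81.2% to 92.0% of the element was inside the island. The 69.0%, the 0% and the 81.2% all came from the longer pair of AT1G48710. In the other 6 copies, the left repeat lay inside by at most 31.5%, the right one by at least 2.72% and the element by at least 84.2%.

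**Figure D5:**
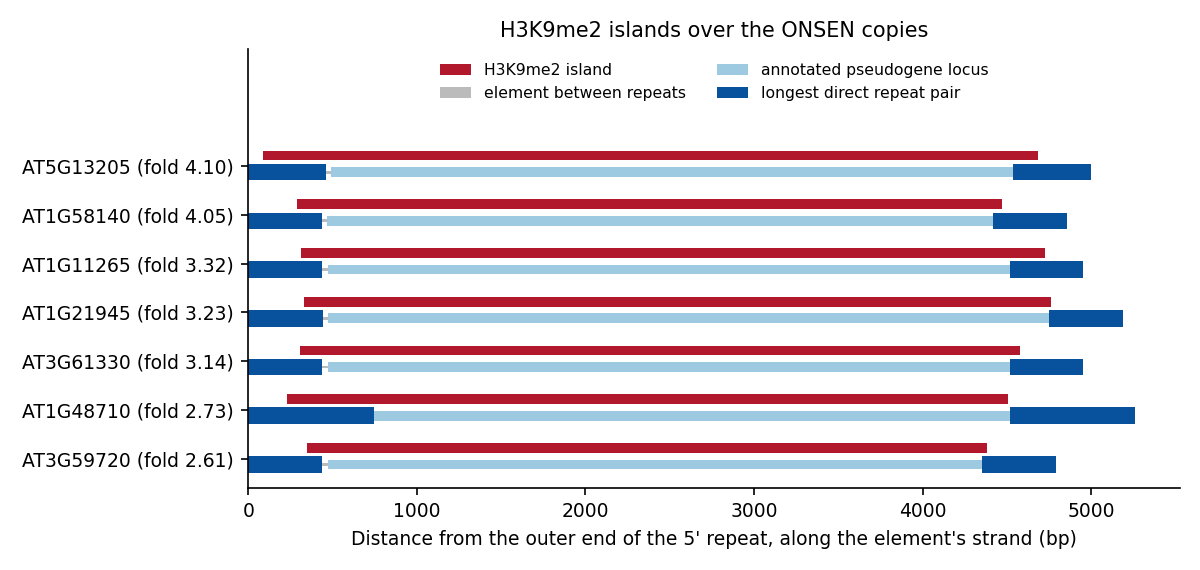
The 7 ONSEN copies aligned at the outer end of the upstream repeat and drawn along their own strand, with distance in bp on the horizontal axis. Red bars are H3K9me2 islands, light blue bars annotated loci and dark blue bars the longest direct repeats. Islands span the loci almost whole and end within the outer repeats or next to them, and the folds beside the names run from 2.61 to 4.10.

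Évadé (EVD), a copia element that becomes mobile in methylation mutants, was not covered in 1 stretch. Its locus AT5G17125 had 3 peaks, with folds of 2.47, 2.32 and 2.07. The island among them, chr5:5633846-5635266, held 21.7% of the locus, and all 3 peaks together 55.0%. Of the 50-base windows in these peaks, 14.3%, 26.1% and 27.6% were unique, so their folds and gaps cannot be fully assigned to this copy.

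A pair of direct repeats of at least 100 bp and 80% identity was found inside 58 islands, or 16.8% (13.2 to 21.1). With 2 kb added on each side, a choice made after seeing that the ONSEN islands held their LTRs only in part, 123 islands had one, or 35.7% (30.8 to 40.8). The longest pair had a median of 337 bp and 97.2% identity, and in 13 islands both repeats were identical. Any pair on the same strand with starts 500 bp to 15 kb apart was counted, so tandem repeats could count as well as LTRs. No share for other peaks or for arm windows is given here, so whether these shares are high cannot be told. A set of 6 words of 12 bases, each TGG plus the reverse complement of the end of an annotated tRNA-Met gene, was searched on both strands as candidate primer binding sites. At least 1 was in 48 islands, or 13.9% (10.7 to 18.0), compared with 0.825% of the 19524 arm windows of 3470 bp, which is the median island width. In the islands every match was to TGGTATCAGAGC.

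At least 1 bp of a protein-coding gene was inside 86 islands, or 24.9% (20.7 to 29.8), compared with 14.4% of all 2549 peaks of the 3 chromosomes. The share was 25.1% in short arm peaks (20.6 to 30.1) and 12.6% in long pericentromeric peaks (10.7 to 14.9), where genes are sparse. The summit base was in such a gene in 15.9% of islands, against 23.8% of short arm peaks and 5.02% of long pericentromeric peaks. Among the 86 islands, 32 also held at least 1 bp of a pseudogene locus. Of the 18172 protein-coding genes of these arms, 107 were touched, or 0.589%, and 89 had at least 50% of their length inside an island. Some of the 107 are annotated as transposon proteins, such as AT1G34070 (copia) and AT5G15685 (MUDRA transposase). Of the 259 islands that touched no protein-coding gene, 135 lay within 1 kb of one, and the largest distance was 10144 bp.

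Genes with a symbol that were at least 50% inside an island numbered 6. RKF2, a receptor-like kinase gene, lay inside chr1:6588337-6592916 over its full 2928 bp, with a fold of 4.89 and 99.6% unique windows. ADR1-L3, a relative of the ADR1 helper genes of plant immunity, had 88.3% of its length inside chr5:19192821-19195277, with a fold of 4.40 and only unique windows. In CYP705A32, a cytochrome P450 gene, 56.5% lay inside an island of fold 2.61. UBQ13, a polyubiquitin gene, was 97.6% inside chr1:24272371-24277163 with a fold of 4.19. Of the 4646 bases of UBQ13 in the island, 81.7% were annotated as intron, and 72.8% of the 50-base windows of the island also occur in the mitochondrial genome, a count added after the data were seen. Reads from mitochondrial DNA and from this place cannot be told apart at these windows. A single other island, chr3:7103624-7104688 over AT3G20362, had a large share from an organelle, with 53.1% of its windows in the chloroplast genome and a fold of 5.64.

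The remaining 2 named genes, HRGP1 and EXT10, belonged to a family of 7 islands over genes for extensins, hydroxyproline-rich proteins of the cell wall. The family was singled out after its values were seen. Its islands had folds of 4.39 over EXT10 (AT5G06640), 4.30 over HRGP1 (AT3G54590), 3.77 over AT3G28550, 3.62 over AT5G06630, 3.53 over AT3G54580, 3.51 over AT1G23720 and 3.00 over the pseudogene EXT11 (AT5G49080). GC content was 47.7% to 52.1%, higher than the upper quartile of all islands. Shifted by their repeat period, 75, 150 or 375 bases, these islands matched themselves at 75.3% to 95.5% of positions, and the median over all islands was 29.9%. The 2 units of HRGP1 printed above are an example. In HRGP1, 11.8% of the covered bases were annotated as intron in some transcript, in EXT10 4.48%, in AT1G23720 7.11% and in AT3G28550 44.3%. In AT3G54580 and AT5G06630 none were. Of 34 arm genes with extensin in their product name, 5 were touched, compared with 0.589% of all protein-coding genes of the arms, and the other 29 had no peak of any width. Since the family was picked for its islands, this count is a description. The share of unique windows was 48.8% to 97.0%.

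Other tandemly repeated genes had higher folds. The island chr3:7803810-7807383 over AT3G22142, annotated in the lipid-transfer protein superfamily, and AT3G22125 had a period of 60 bases and a fold of 7.98. At AT5G07570, which encodes a glycine- and proline-rich protein, the island at chr5:2392147-2396117 had a fold of 7.62 and matched itself at 56.9% at a shift of 360 bases. They were also picked after their values were seen.

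On chromosome 1, 12 islands stood in a row from chr1:8765839 to 8832884, a stretch of 67046 bp, of which they covered 38083 bp. This stretch was picked after its values were seen. These islands touched 11 protein-coding genes, 4 of them annotated as glutamine amidotransferase type 1. Folds ran from 2.96 to 6.19. In 6 of the 12, no 50-base window was unique, and the highest share was 42.5%. The array is itself a repeat, since 4 of its islands formed a family with a median identity of 99.9%.

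There were 5 islands inside an intron of a protein-coding gene, and the arms had 650 introns of at least 1000 bp in 559 arm genes. In RPP7 (AT1G58602), a disease resistance gene against downy mildew, the island chr1:21747329-21753644 filled 85.5% of the intron chr1:21746500-21753883 and had a fold of 5.54. AT3G05410, a gene of the PsbP family, had chr3:1555713-1560470 over 82.8% of its intron, with a fold of 4.74. In AT1G11270, an F-box gene, the island over the ONSEN copy AT1G11265 took 88.3% of the intron, with a fold of 3.32. AT5G17165 (fold 4.90) and the defensin-like gene AT5G55565 (3.37) had islands over 46.6% and 38.4% of an intron. In RPP7 the island ended 829 bp from one end of the intron and 239 bp from the other. Only islands wholly inside an intron were counted, so that all 5 ended within it follows from this choice. Other islands with the summit in an intron ran past it, as at AT1G27570 and UBQ13.

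Of 8 listed loci known for silencing or internal heterochromatin, 4 had an island, namely RPP7, AT3G05410, AT1G11270 and EVD. No peak of any width lay over IBM1, which encodes a histone demethylase that keeps H3K9me2 off genes and has heterochromatin in a long intron, and the nearest peak was 164983 bp away. MEA, an imprinted Polycomb gene, had its nearest peak at 110986 bp. PHE1, an imprinted MADS-box gene, had it at 5035 bp, which is the UBQ13 island, and BNS, a gene beside a LINE element, at 274 bp. The depth behind these absences is unknown. The 11 listed genes of the H3K9me2 and DNA methylation machinery, including SUVH4, CMT3, DDM1, IBM2 and EDM2, had no peak, with the nearest at 6556 to 389025 bp. The 5 listed constitutively expressed genes had none either, at 3884 to 543982 bp. Only 7 of the 11 and 4 of the 5 lie on chromosomes 1, 3 and 5. Of all protein-coding genes of the arms of these chromosomes, 0.589% were touched by an island, so lacking an island does not set the listed genes apart. The share of genes touched by a peak of any width, or outside these arms, was not counted.

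A last group of 24 islands had neither a pseudogene locus nor a protein-coding gene, and 20 of them had no annotated locus at all. They were short, at 1005 to 2745 bp, and had a median fold of 2.84 and a median GC content of 34.2%, against 4.28 and 40.6% in all islands. Of the 24, 11 came from 2 families. One is the family with 0 or 1 difference around the summit printed above. Its 7 islands, 1 of which also touched AT1G56100, had folds of 2.80 to 5.44 and a GC content of 33.1% to 34.6%. Copies were 97.0% identical at the median. The 7 places of this family in the nuclear genome were the 7 islands themselves, whose position on the arms follows from the rule. No further near-full copy was found. The other family had 5 islands with folds of 2.38 to 3.74 and a GC content of 31.4% to 32.5%. It had 21 places, counting the 5 islands themselves, which are peaks by definition. Of the 21, 4 lay in the pericentromeres of the 3 chromosomes and 18 had at least 50% of their bases in a peak.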

How the data were processed

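H3K9me2 ChIP-seq peaks of 1 library were used. Per the labels, chromatin was sequenced as single-end reads of 50 bp, and the submitters' processing notes name Bowtie 1.1.2, SAMtools, MACS2 2.1.1 and the build TAIR10. The control, the thresholds and the treatment of reads with several matches are not given in the sources used here. The deposited file gives for each peak the fold ratio over background, −log10 p-values and −log10 q-values, an integer score from the caller and other values (start, end and summit offset). The smallest −log10 q-value deposited by the authors was 1.32. The depth is unknown.

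Peaks ended within the chromosomes of TAIR10.1 (RefSeq), whose sequence and annotation were used. Pericentromeres are runs of 100 kb bins with a protein-coding share under 50% of the chromosome median, as a running mean over 5 bins. Members and gene lists were chosen with earlier results of these data known. Loci overlapped with at least 1 bp. Direct repeats came from BLAST+ 2.17.0 (blastn, starts 500 bp to 15 kb apart), copies from megablast with word size 20 and alignments of at least 100 bp, and tandem periods of 3 to 499 bases from shifting each island against itself. Intervals are 95% Wilson intervals of counting error. No test was run, since regions of 1 library are not replicates. Named were the 3 widest and 3 highest islands per chromosome, the farthest on each arm, those next to the threshold, listed loci, genes with a symbol covered by at least 50%, and intron islands. Alternatives were other limits on fold, width, borders, merging, overlap, repeats and window length. Scripts ran in Python 3.11.15 with matplotlib 3.10.9, SciPy 1.17.1, pandas 2.3.3 and NumPy 2.4.6, and were tested on simulated data. EM-seq and WGBS libraries and the H3 library were not analysed here.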

Additional observations from a re-analysis of the deposited data

How the results depend on the processing

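Of 49 recomputed values, 33 kept within their interval, or within 1.5 times for the count, and 16 did not. With a fold no lower than the upper quartile of all 4144 peaks, there were 205 islands, 82.4% over a pseudogene locus, with a median fold of 5.19, direct repeats in 23.4% and a median GC content of 41.3%. With a width of at least 2000 bp, 86.7% lay over a pseudogene locus and the median fold was 4.74. With at least 500 bp, these were 69.5% and 3.55, and 12.3% had direct repeats. With at least 50% of the locus inside, 70.4% of islands held a pseudogene locus. With the summit base inside the locus, 71.9% lay over a pseudogene locus and 15.9% over a protein-coding gene. Direct repeats of at least 90% identity were in 13.04%, and with 2 kb on each side, added after seeing the data, in 35.7%. With windows of 100 bases, the median unique share was 89.1%. The cause of these changes was not tested, beyond the change in members or windows that each setting makes. Wider pericentromeres (270 islands) and merging peaks within 1 kb (336 islands) moved no value out of its interval. No paired analysis was possible because 1 H3K9me2 library was analysed here, with no second group, and no replicate could be left out. Depth limits what the absence of a peak can say, since it is unknown.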
